A study of Homo sapiens with 3 samples.

Results

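Osteoblast transcription factor genes were examined for binding of RUNX2 and CBFB in SAOS2 cells. The set held 9 genes (SP7, DLX5, DLX6, DLX3, MSX1, MSX2, ATF4, TWIST1 and SOX9) of 20162 protein-coding genes, and it was chosen by name. For each gene, all peaks whose edge lay within 25 kb of the gene body were taken from both peak lists. The peaks came from ChIP-seq, in which protein bound to DNA is captured with an antibody and the recovered DNA is sequenced. The RUNX2 list held 9941 peaks and the CBFB list 27246, of which 6 and 23 lay near the 9 genes.

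SAOS2 is an established human osteosarcoma line that lacks p53, and the cells were untreated. RUNX2 was precipitated with an antibody made in house, and CBFB with a commercial antibody. Each antibody had 1 library, so there was no replicate error and no test between antibodies or genes was possible, and the input library was not analysed here. The lists show where peaks were called and do not show whether a gene was expressed. The score of a peak was read as the MACS score, -10 times log10 of its p-value. It was compared within a list only, as a rank (1 is the highest score) or as a percentile (the percent of the list with a score at or below it). The depth behind the scores is unknown.

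RUNX2 is the DNA-binding factor that commits mesenchymal cells to the osteoblast lineage, and CBFB is the partner that stabilises RUNX proteins on DNA. RUNX proteins recognise a short core motif, which is bound by RUNX1, RUNX2 and RUNX3 alike. Osteoblast formation also depends on a zinc finger factor, SP7, and on homeodomain factors of the DLX and MSX families. ATF4 serves the amino acid supply of matrix-forming osteoblasts, TWIST1 restrains RUNX2 activity in early progenitors, and SOX9 directs the alternative cartilage fate.

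RUNX2 peaks lay near 4 of the 9 genes, SP7, DLX5, DLX6 and SOX9, a share of 44.4% (exact 95% interval 13.7 to 78.8, counting error only). DLX5 and DLX6 are neighbours and shared their peaks. The same rule held for 36.0% of all protein-coding genes. CBFB peaks lay near 8 genes, all but MSX1 (88.9%, 51.8 to 99.7), against 62.2% of all protein-coding genes. Long genes offer more room for a peak, and all members except TWIST1 were at most 20 kb long. Among protein-coding genes of that length, 29.5% had a RUNX2 peak and 53.4% a CBFB peak within 25 kb, and among longer genes the shares were 40.8% and 68.6%. Each of these background shares lay inside the interval of the members.

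**Figure D1:**
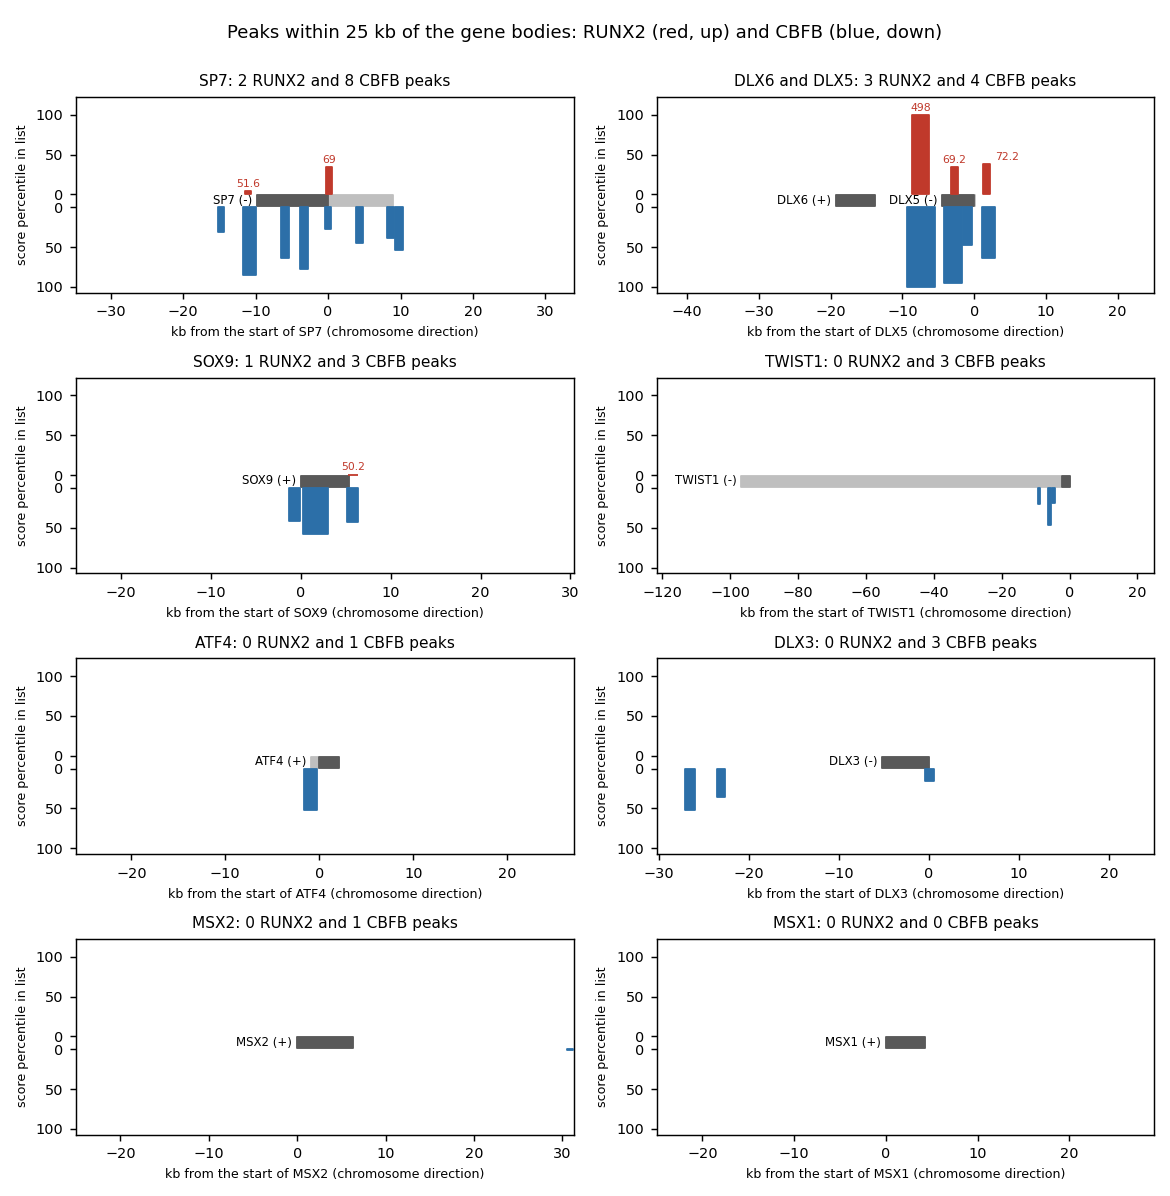
Peaks within 25 kb of each gene body, by distance in kb from the start of the named gene's canonical transcript. Dark bars are canonical transcripts and light bars the rest of the GENCODE gene, with the strand in brackets. Bar height is the score percentile within the RUNX2 list (red, upward, with the score) or the CBFB list (blue, downward). The tallest red and blue bars lie between DLX6 and DLX5, the RUNX2 scores at SP7 and SOX9 are 69.0 or lower, and the MSX1 panel is empty.

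The RUNX core motif was searched as TGTGGT on both strands. The sequences on which the results turn are given below from GRCh37, the build of all positions here, 5′ to 3′ and with the core in capitals. The first is the central 201 bases of the highest-scoring RUNX2 peak of the set, between DLX6 and DLX5 (chr7:96646555-96646755, plus strand), which held no core.
DLX6 to DLX5 interval, peak centre: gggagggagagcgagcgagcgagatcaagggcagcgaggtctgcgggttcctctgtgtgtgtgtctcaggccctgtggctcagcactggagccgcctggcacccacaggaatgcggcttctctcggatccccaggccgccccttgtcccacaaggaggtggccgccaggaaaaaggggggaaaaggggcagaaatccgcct

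Copies of the core at or beside the near RUNX2 peaks of the DLX pair and SOX9 are shown next to locate them against the peak centres, each with 20 bases to either side and on the strand that reads TGTGGT. They lie at chr7:96645194-96645259 (plus strand, with both copies) for the interval between DLX6 and DLX5 and at chr17:70122796-70122841 (plus strand) for the RUNX2 peak at the SOX9 end.
DLX6 to DLX5 interval, CBFB peak flank: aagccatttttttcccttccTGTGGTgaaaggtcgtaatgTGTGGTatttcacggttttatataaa
SOX9 end, off centre: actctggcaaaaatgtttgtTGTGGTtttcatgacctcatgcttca

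SP7 (chr12:53720359-53739099, minus strand) encodes the zinc finger factor that acts after RUNX2 in osteoblast differentiation, and it had the most CBFB peaks of the 9 genes, 8 within 25 kb. At least as many were found at 504 of the 20162 protein-coding genes, and at 16 of the 8502 of at most 20 kb (0.188%). The CBFB scores at SP7 ran from 77.4 to 337, percentiles 27.0 to 84.4. In chromosome order from the AAAS side, they were 83.0, 337, 167, 257, 77.4, 109, 95.7 and 132. The highest of the 8 covered the AAAS start and most of the gap between AAAS and SP7, with its midpoint in the gap, 685 bp from the AAAS start and 10805 bp downstream of the SP7 start. Another CBFB peak, of score 83.0, had its midpoint 10 bp from an AAAS start. Of the 8 peaks, these 2 were thus nearer to a start of AAAS, which encodes a nuclear pore protein, than to one of SP7.

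Among the CBFB peaks inside SP7, those of score 167 and 257 were intronic, 5951 and 3339 bp downstream of the canonical start. The peak of score 77.4 covered that start, with its midpoint 45 bp away. Those of score 109, 95.7 and 132 lay 4359, 8643 and 9767 bp upstream of it. The last of these was just beyond the far, upstream end of the longest SP7 transcript, with its midpoint 806 bp from that transcript's start. The others had their midpoints in introns of that transcript, and the peak of score 95.7 reached across its start, 318 bp from the midpoint. Of the 8 CBFB peaks at SP7, 3 held the core within 100 bp of their midpoint, and they were those same 3 upstream peaks. None of the 3 overlapped a RUNX2 peak, and 2 of the other CBFB peaks at SP7 did.

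SP7 also had 2 peaks of the RUNX2 list, a number reached by 13.8% of all protein-coding genes and 9.56% of the short ones. The RUNX2 peak at the canonical start had a score of 69.0, rank 6543 and percentile 34.2. It shared 737 bp with the CBFB peak of score 77.4, and its only core copy lay 164 bp from its midpoint. The RUNX2 peak of score 51.6 (rank 9536, percentile 4.08) lay inside the highest CBFB peak, 414 bp from the AAAS start, and held no copy of the core. Both RUNX2 peaks thus scored below the median of their list, which was 84.1.

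DLX5 (chr7:96649708-96654262, minus strand) and DLX6 (chr7:96634865-96640352, plus strand) are homeobox genes that stand tail to tail and are expressed together in developing bone. The interval between them is known to hold conserved enhancers. The strongest RUNX2 peak near any member lay in this interval (chr7:96645404-96647907), 1801 bp from the DLX5 body and 5052 bp from the DLX6 body. Its score was 498, rank 97 of 9941 and percentile 99.0, and its width of 2504 bp was the largest among the 6 RUNX2 peaks near the members. The CBFB peak around it (chr7:96644705-96648698) was 3994 bp wide, with a score of 2988, rank 32 of 27246 and percentile 99.9. It was the highest-scoring and widest CBFB peak near the members. By score divided by width, the percentiles of these peaks were 91.6 for RUNX2 and 99.1 for CBFB.

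The RUNX2 peak in the interval held no copy of the core over its whole length, whereas 78.1% of all RUNX2 peaks did. The CBFB peak around it held 2 copies, 14 bp apart and both in the flank on the DLX6 side. The nearer copy ended 165 bp outside the edge of the RUNX2 peak, and the copies lay 1464 and 1484 bp from the midpoint of the CBFB peak. The variant core TGCGGT was present in both peaks, though not within 100 bp of either midpoint.

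Another 2 RUNX2 peaks lay at DLX5 itself. The first, of score 69.2 and percentile 34.4, had its midpoint in an untranslated exon part of DLX5, 2763 bp downstream of the canonical start, and the CBFB peak that overlapped it had a score of 672 (percentile 94.9). The second, of score 72.2 and percentile 38.3, lay 1689 bp upstream of the start, with an overlapping CBFB peak of score 168 (percentile 63.7). Its only copy of the core was 412 bp from its midpoint. The remaining CBFB peak, of score 116, lay in a DLX5 intron without a RUNX2 peak. Each of DLX5 and DLX6 therefore had 3 RUNX2 peaks, a number reached by 5.65% of all protein-coding genes and 2.74% of the short ones. These were the same peaks, and all 3 were nearer to a start of DLX5 than to one of DLX6. With a reach of 5 kb, DLX6 had no RUNX2 peak.

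**Figure D2:**
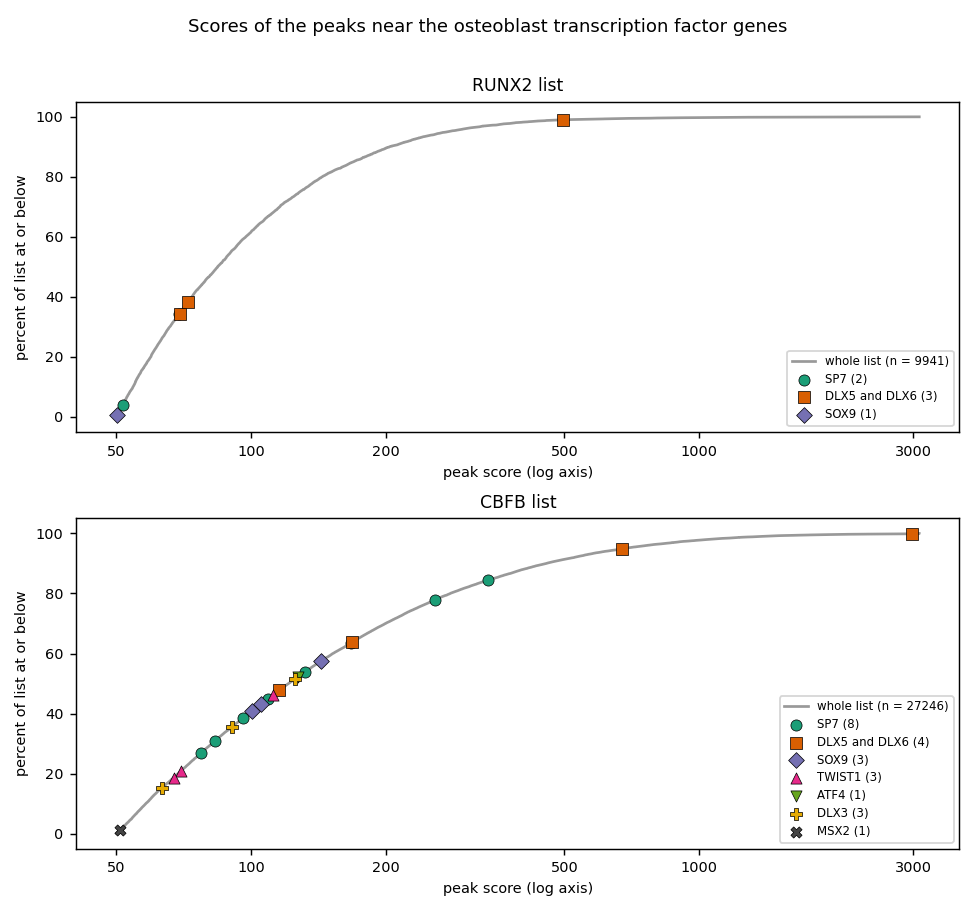
Cumulative distribution of peak scores (log axis) for each whole list (grey), as the percent of the list at or below a score, with the peaks near the 9 genes marked by gene. The DLX5 and DLX6 interval peak stands near the top of both curves, while 5 of the 6 RUNX2 symbols lie below the list median of 84.1. The SP7 symbol at 69.0 is hidden behind the DLX5 symbol at 69.2.

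SOX9 (chr17:70117161-70122557, plus strand) encodes the factor that starts cartilage formation. Within 25 kb it had 3 CBFB peaks and 1 RUNX2 peak. The latter (chr17:70122403-70123522) spanned the 3′ end of SOX9, with its midpoint 5801 bp downstream of the start and in an intron of the antisense gene SOX9-AS1. Its score was 50.2, rank 9875 and percentile 0.674, close to the lowest score of the list, 50. It lay inside a CBFB peak of score 105 and held 1 core, 144 bp from the midpoint in the sequence shown above. The other CBFB peaks had scores of 100.3, with a midpoint 740 bp upstream of the start, and 143, at 1603 bp downstream. The peak of score 143 held a core within 100 bp of its midpoint, and neither overlapped a RUNX2 peak.

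TWIST1, ATF4, DLX3 and MSX2 had CBFB peaks but no RUNX2 peak within 25 kb. TWIST1 (chr7:19060614-19157259, minus strand), a basic helix-loop-helix gene, had 3 CBFB peaks of scores 67.1, 69.5 and 112, at midpoints 4819, 9103 and 5901 bp downstream of its canonical start. All were at or below percentile 46.3. They lay in introns of a long GENCODE transcript, which stretches the gene to 96646 bp, and beyond the end of the canonical transcript of 2169 bp. None of the 3 peaks held the core anywhere. The nearest RUNX2 peak lay 59.5 kb away.

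ATF4 (chr22:39915700-39918688, plus strand), which encodes a leucine zipper factor of the amino acid response, had 1 CBFB peak. Its score was 127 (percentile 52.2), and its midpoint lay 44 bp from an annotated start of ATF4 and 911 bp upstream of the canonical start. The nearest RUNX2 peak was 119 kb away, with a score of 68.7. DLX3 (chr17:48067369-48072588, minus strand), a homeodomain gene of bone and tooth, had 3 CBFB peaks. The peak at its own start, with a midpoint 35 bp away, had a score of 63.1 and percentile 15.1. The other 2 peaks, of scores 125 and 90.5, had their midpoints in untranslated exon parts of its neighbour DLX4, 125 and 184 bp from DLX4 starts. The 3 peaks at DLX3 and DLX4 held no core at all, and the nearest RUNX2 peak to DLX3 was 109 kb away.

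The MSX genes encode homeodomain factors of the skull and tooth. MSX2 (chr5:174151585-174157899, plus strand) had 1 CBFB peak of score 50.8, percentile 1.04, at 24.2 kb from the gene body, and that peak held a core 54 bp from its midpoint. It was the member peak nearest to the 25 kb limit, and the first peak outside the limit was a CBFB peak of score 176, 25.5 kb from SP7. The nearest RUNX2 peak to MSX2 was 209 kb away. MSX1 (chr4:4861392-4865663, plus strand) had no peak of either list, with the nearest CBFB peak 181 kb and the nearest RUNX2 peak 317 kb from the gene. Of all protein-coding genes, 88.0% had a CBFB peak and 81.1% a RUNX2 peak within these distances.

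For the 5 CBFB peaks with a core within 100 bp of the midpoint, the core nearest to each midpoint is shown here. These peaks had no RUNX2 overlap, as was the case for 17 of the 23 CBFB peaks near the members. Of all CBFB peaks, 33.8% overlapped a RUNX2 peak. The peak of score 132 at SP7 held another such core, 62 bp from its midpoint, which is not shown. The cores come from SP7 (chr12:53734377-53734422, minus strand; chr12:53738662-53738707, minus strand; and chr12:53739898-53739943, minus strand), SOX9 (chr17:70118688-70118733, plus strand) and MSX2 (chr5:174182324-174182369, plus strand).
SP7 intron, score 109: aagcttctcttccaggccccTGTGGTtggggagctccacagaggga
SP7 intron, score 95.7: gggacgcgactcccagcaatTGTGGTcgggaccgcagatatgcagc
SP7 far end, score 132: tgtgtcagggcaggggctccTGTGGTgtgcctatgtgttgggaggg
SOX9 intron, score 143: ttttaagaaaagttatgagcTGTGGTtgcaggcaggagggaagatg
MSX2 downstream, score 50.8: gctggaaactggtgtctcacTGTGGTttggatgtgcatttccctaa

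Over the whole set, all 6 RUNX2 peaks overlapped a CBFB peak (exact 95% interval 54.1 to 100%), against 94.2% of the RUNX2 list. The count was 4 of 6 when at least 50% of both peaks had to be shared, when midpoints had to lie within 200 bp, and when the CBFB list was shortened by score to the length of the RUNX2 list. The shares of the whole RUNX2 list under these stricter settings are not given here. In the other direction, 6 of 23 CBFB peaks (26.1%, 10.2 to 48.4) shared sequence with the RUNX2 list, against 33.8% of all CBFB peaks. The 6 CBFB peaks with a RUNX2 peak had scores of 77.4 to 2988, with a median of 253, and the 17 without one had scores of 50.8 to 257, with a median of 109. The groups overlapped widely. By CBFB score percentile, RUNX2 peaks were found at 0 of 4 member peaks up to percentile 25, 2 of 9 up to 50, 1 of 6 up to 75, 1 of 2 up to 90 and 2 of 2 above. In the whole list the shares in these ranges were 6.15%, 14.9%, 35.4%, 68.3% and 94.1%.

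The scores near the members were not high as a group. The median was 69.1 for RUNX2 (percentile 34.3), with 1 of 6 peaks at or above the list median. For CBFB it was 112 (percentile 46.3), with 10 of 23 at or above the list median of 121. Nearly all member peaks lay within 5 kb of an annotated transcription start, 5 of 6 for RUNX2 and 21 of 23 for CBFB. Promoters so defined held 45.9% and 46.2% of the lists, which also hold peaks far from any gene. The 25 kb rule favours peaks close to a start, since all members except TWIST1 were at most 20 kb long. These shares are therefore not like for like.

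None of the 6 RUNX2 peaks held the core within 100 bp of the midpoint (0%, exact 95% interval 0 to 45.9%), whereas 43.2% of the RUNX2 list did. In the list this share was 34.4% in the promoter class and 50.8% outside it. For CBFB, 5 of 23 member peaks held such a core (21.7%, 7.46 to 43.7), against 41.6% of the list. Anywhere in the peak, the core was present in 3 of 6 RUNX2 and 14 of 23 CBFB peaks, against 78.1% and 80.9% of the lists. The deposited positions give peak edges and not summits, so the midpoint only approximates the site of most signal.

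Base composition moved with this result. The 6 RUNX2 peaks had a GC content of 42.1 to 70.7% with a median of 56.5%, and the median of the list was 47.7%. In the list, the share of RUNX2 peaks with the core within 100 bp of the midpoint fell from 55.1% at a GC content up to 45% to 17.8% above 60%. The part of base composition in the result was not tested. Other motifs were counted over whole peaks on both strands. The GC box GGGCGG was present in 4 of 6 RUNX2 and 17 of 23 CBFB member peaks, against 33.8% and 36.8% of the lists, and it too is made of G and C. The homeodomain core TAATTA was present in 2 of 6 and 2 of 23, against 24.8% and 31.3%. The AP-1 motif TGANTCA was present in 3 of 6 and 6 of 23, against 37.9% and 42.1%.

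RUNX2 peaks at 25 to 100 kb from the gene bodies were also examined. The split by distance was made after the values were seen and is a description. There were 5 such peaks, 4 around DLX5 and DLX6 and 1 near TWIST1, and all 5 held the core within 100 bp of the midpoint. Over their whole lengths the 5 peaks held 10 copies. None of the 5 was in the promoter class. In the list, 50.8% of RUNX2 peaks outside that class held such a core, as did 55.1% of RUNX2 peaks with a GC content up to 45%. Their GC content was 38.7 to 46.6%, below the median of the list in each case, and its part in the difference was not tested.

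The RUNX2 peak near TWIST1 (chr7:19216786-19217540) lay 59.5 kb from the gene body, on the upstream side, with a score of 169 and percentile 85.0. The CBFB peak around it had a score of 558 (percentile 92.9). FERD3L, another basic helix-loop-helix gene, had a start closer to the peak, at 32119 bp. In the DLX region, the RUNX2 peaks beyond DLX6 had scores of 137 and 55.7, at 55.1 and 42.5 kb from its body, and the latter lay in an exon of the long noncoding gene DLX6-AS1. Those beyond DLX5 had scores of 70.7 and 268, at 63.3 and 69.5 kb. Both were closer to a start of another coding gene, SDHAF3, at 29030 and 22698 bp. Each of the 4 RUNX2 peaks in the DLX region overlapped a CBFB peak, with CBFB scores of 527, 216, 149 and 447 in the same order.

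The core in the TWIST1 peak (chr7:19217044-19217089, plus strand) is given next. With it is the core nearest to the midpoint of the RUNX2 peak of score 268 beyond DLX5 (chr7:96724240-96724285, minus strand). Both match the longer RUNX site TGTGGTT.
TWIST1 upstream: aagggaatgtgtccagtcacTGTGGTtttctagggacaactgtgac
DLX5 upstream: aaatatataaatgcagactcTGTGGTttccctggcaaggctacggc

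With all peaks within 100 kb, DLX5 and DLX6 each had 7 RUNX2 peaks, a number reached by 2.39% of all protein-coding genes. They had 12 and 11 CBFB peaks, numbers reached by 4.63% and 6.13%. Some of these peaks, in both lists, were nearer to a start of SDHAF3 than to one of DLX5 or DLX6. Among the 12 was a CBFB peak of score 82.0 with its midpoint 20 bp from the SDHAF3 start. DLX3 had no RUNX2 peak within 100 kb, although a CBFB peak of score 622 (percentile 94.1) lay 31.6 kb from its body.

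**Figure D3:**
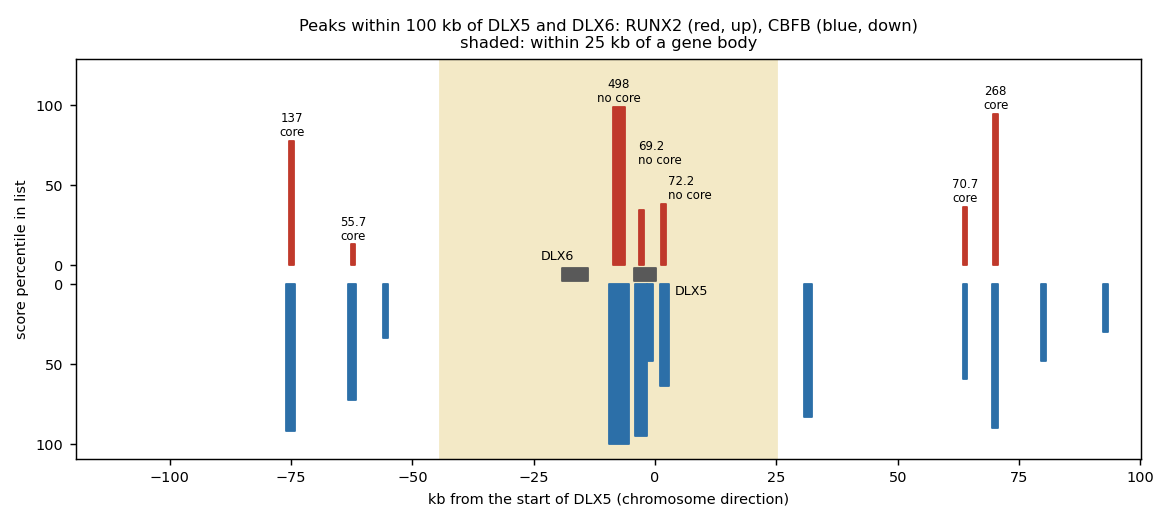
RUNX2 peaks (red, upward, with the score) and CBFB peaks (blue, downward) within 100 kb of DLX5 and DLX6, by distance in kb from the start of DLX5. Bar height is the score percentile within each list, shading marks the 25 kb reach, and the labels tell whether the RUNX core lay within 100 bp of the RUNX2 peak midpoint. The 3 peaks in the shaded part held no such core and the 4 outside it did, against 43.2% of the RUNX2 list.

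The number of members with a peak was then followed over the reach. At a reach of 10 kb, 4 members had a RUNX2 peak and 7 a CBFB peak, against 28.4% and 52.7% of all protein-coding genes. At 100 kb the numbers were 5 and 8, against 59.2% and 81.4%. At 250 kb, 8 members had a RUNX2 peak and all 9 a CBFB peak, against 77.0% and 90.9%. MSX1 was the last member to gain a RUNX2 peak.

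**Figure D4:**
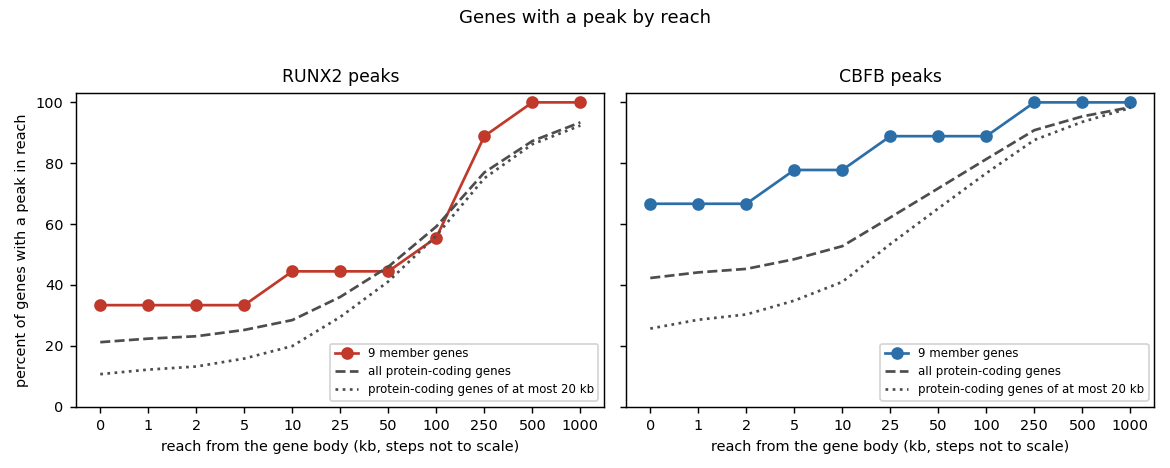
Percent of genes with a peak by the reach from the gene body in kb (steps not to scale), for RUNX2 and CBFB. Points are the 9 members, the dashed line all protein-coding genes and the dotted line those of at most 20 kb. For RUNX2 the members ran above both lines at short reach and were close to them at 50 and 100 kb, where 4 and 5 members had a peak.

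SOX9 stands in a gene desert that is known to hold distant enhancers, so peaks whose nearest protein-coding start was that of SOX9 were also counted. Their number per Mb was taken after the values were seen. This stretch was 1.28 Mb long and held 6 RUNX2 and 23 CBFB peaks, that is 4.69 RUNX2 and 18.0 CBFB peaks per Mb. The whole genome held 3.21 RUNX2 and 8.79 CBFB peaks per Mb. At least as many RUNX2 peaks were assigned in this way to 1.17% of protein-coding genes, and at least as many CBFB peaks to 0.228%. A longer stretch offers more room for peaks, and these shares were not matched for its length. The peak at the SOX9 end was the lowest of the 6 RUNX2 scores. The others had scores of 195 at 932 kb, 54.3 at 869 kb, 242 at 743 kb and 171 at 593 kb upstream of the SOX9 start, and 189 at 302 kb downstream in an exon of LINC00511. All 6 overlapped a CBFB peak. The core lay within 100 bp of the midpoint in 2 of them, those of score 242 and 171.

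To place the 9 genes among related ones, a list of 28 other transcription factor genes of skeletal cells was examined in the same way. RUNX2 peaks lay within 25 kb of 18 of the 28 (64.3%, 44.1 to 81.4) and CBFB peaks within 25 kb of 21 (exact 95% interval 55.1 to 89.3%). Of all protein-coding genes, 36.0% and 62.2% had such peaks. Of the 11 genes of at most 20 kb, 6 had a RUNX2 and 7 a CBFB peak. Among all protein-coding genes of that length the shares were 29.5% and 53.4%. Of the 17 longer genes, 12 and 14 had one, against 40.8% and 68.6% of all longer genes. The highest RUNX2 scores were 260.2 at LEF1 and 212 at TCF7, both effectors of Wnt signalling, 233 at GLI2, an effector of hedgehog signalling, 200.4 at PRRX1, a homeobox gene of limb mesenchyme, and 190.9 at SOX5, a partner of SOX9. These 5 lay in introns of the gene, and all were below the score of 498 between DLX6 and DLX5. GLI2 had 6 RUNX2 and 17 CBFB peaks, the most of the 28.

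No peak of either list lay within 25 kb of FOXC1, FOXC2, TWIST2, HAND2, NFATC1, ZNF521 or PITX1. ZEB1, DLX4 and SP3 had CBFB peaks only. DLX1 and DLX2, a homeobox pair built like DLX5 and DLX6, shared 1 RUNX2 peak of score 65.4 (percentile 29.5). The best RUNX2 peak per gene had a median percentile of 66.6 over the 4 members with one, 74.5 over the 18 other genes and 60.03 over all protein-coding genes with one. For CBFB the medians were 54.8, 86.0 and 68.7. The best percentile can only rise with more peaks in reach, and 17 of the 28 genes were over 20 kb, against TWIST1 alone among the members. The part of gene length in these medians was not tested. The value of 66.6 rests on 4 genes, of which DLX5 and DLX6 share the percentile 99.0, and SP7 and SOX9 had 34.2 and 0.674.

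**Figure D5:**
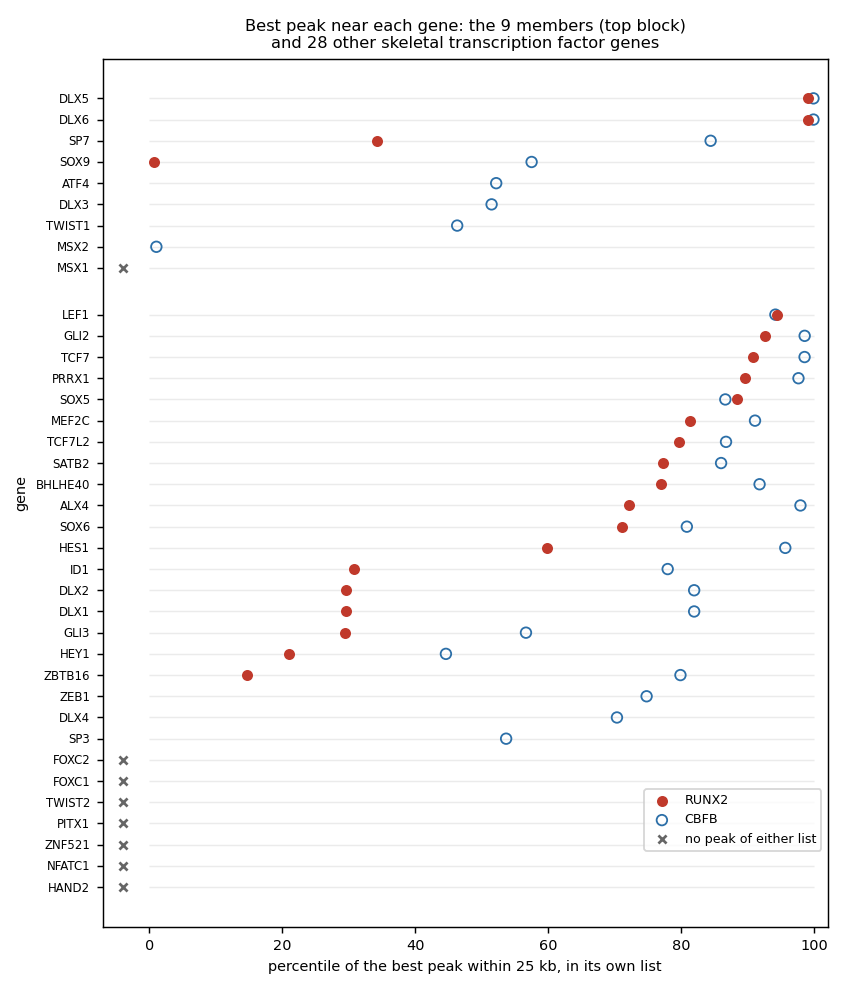
Percentile of the best peak within 25 kb of each gene, in the RUNX2 list (red points) and in the CBFB list (blue circles), with crosses for genes without a peak of either list. The top block holds the 9 members and the lower block the 28 other genes. DLX5 and DLX6 are at 99.0 and 99.9, and SP7 and SOX9 have a RUNX2 point far to the left of the CBFB circle.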

How the data were processed

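ChIP-seq of untreated SAOS2 cells gave 1 RUNX2, 1 CBFB and 1 input library, 3 samples in all, grouped by their labels. Peaks of each ChIP library were called by the authors with MACS. The submitters' processing notes name MACS 1.4.1, CASAVA 1.8.2 and hg19. The aligner, the calling threshold and whether the input served as control were not given in the sources used here. The score column deposited by the authors ran from 50 to 3100 in both lists and was read as the MACS score. It depends on depth, which is unknown, and intensities summed over reads, as used in the study, were not used here.

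Genes were those of GENCODE 44 lifted to GRCh37. A peak belonged to a gene when the edges were at most 25 kb apart, peaks overlapped when they shared at least 1 bp, and the promoter class took midpoints within 5 kb of any transcript start. Peaks on other contigs (13 RUNX2 and 42 CBFB) entered list totals, score ranks and overlap shares, and were left out of the annotation and motif steps. Genes and the peaks near them are named for the 9 members, with the gene at or nearest to each peak, and for the list of 28 other factors those at the top and those without a peak. The members and lists were chosen with earlier results of these data known. Sequences were read from the GRCh37 genome and a selection is printed, without 1 that is not reported here. Intervals of shares are 95% Clopper-Pearson (exact). They treat peaks or genes as independent and hold no error beyond counting. The gene, overlap and motif steps were tested on simulated data. Alternatives covered the reach, the distance measure, the score limit, the overlap and the motif, and gene bodies of the canonical transcript alone, which was added after the data were seen. The software was pysam 0.24.0, pandas 2.3.3, numpy 2.4.6, matplotlib 3.10.9 and scipy 1.17.1 under Python 3.11.15.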

Additional observations from a re-analysis of the deposited data

How the results depend on the processing

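Of 53 recomputed summary values, 32 stayed within 1.5 times a count or within the exact 95% interval of a percentile, taken as a share of its list, and 21 did not. The limit for counts is wide and that for percentiles narrow. Within it, overlapping peaks fell from 6 to 4 under each stricter overlap or list, and members with a CBFB peak at or above the median score fell from 8 to 6. Only DLX5 and DLX6 kept a RUNX2 peak when scores of at least 100 or at or above the median were required, so that 2 members remained. When the CBFB list was shortened to the length of the RUNX2 list, 3 members had a CBFB peak, SP7, DLX5 and DLX6. The shares of all protein-coding genes under these score limits are not given here, so the falls cannot be set against those of other genes. The RUNX2 peaks near the members numbered 11 with a reach of 100 kb, 1 with scores of at least 100 and 14 when each peak was given to the nearest protein-coding start. The CBFB peaks numbered 44, 15 and 51 under the same settings. At 100 kb, 11 RUNX2 and 11 CBFB peaks overlapped. The core count for RUNX2 was 3 anywhere in the peak and 1 with TGCGGT allowed. For CBFB it was 1 within 50 bp, 14 anywhere, 8 with TGCGGT allowed and 2 for TGTGGTT. In the whole lists, 78.1% of RUNX2 and 80.9% of CBFB peaks held the core anywhere. TGTGGTT lay within 100 bp of the midpoint in 23.2% of all CBFB peaks. The list shares within 50 bp and with TGCGGT allowed are not given here. The median best percentile at 100 kb was 85.0 for RUNX2 and 88.6 for CBFB, and with score divided by width it was 58.2 for CBFB. Of the 28 other genes, 11 had a RUNX2 peak with scores of at least 100, likewise without a share over all genes. No paired analysis was possible because no group held more than 1 sample. Without replicates, read depth or the input, the error of a peak call and of its score is unknown, and a gene without a peak may have one below the score limit of 50.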
